A study of Mus musculus with 2 samples.

Results

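CpG methylation was examined at 38 genes that encode enzymes and Polycomb subunits of histone methylation, out of 55413 annotated genes. The genes were listed by name for their function. The listing rule used no methylation value, but the list was drawn up with earlier results of these data known. They comprise 3 methyltransferases of histone H3 lysine 36 and 5 of H3 lysine 9. A further 12, Kmt2e among them, were grouped as methyltransferases of H3 lysine 4 or their core subunit, without a check of activity. The others are Dot1l (H3 lysine 79), Setd8 (H4 lysine 20), 4 subunits of Polycomb repressive complex 2 (PRC2), 6 subunits of PRC1, and 6 demethylases. Setd8 is listed in the annotation as Kmt5a. Setd2, which the study followed up after choosing it from these same libraries, was set against the other 37, so its values are not independent evidence of a direction.

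The data were 2 reduced representation bisulfite sequencing libraries of mouse myotubes, the multinucleate muscle cells formed in culture from C3H myoblasts. Of these, 1 library came from myotubes transfected with a control small interfering RNA (siCon) and 1 from myotubes given a small interfering RNA targeting H19, a long noncoding RNA (siH19), and the DNA of both was collected 48 h later. The cells carried no other labelled treatment. With 1 library per group the variation between cultures cannot be estimated, and the effects of the knockdown and of the culture cannot be told apart. Intervals and p-values below compare the reads of 2 libraries and cover at most counting error. Most of them take every read call at a cytosine as independent, yet reads are not independent molecules and 1 read spans several CpGs. Those intervals can therefore be too narrow and those p-values too small.

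The lysine methyltransferases transfer a methyl group from S-adenosylmethionine to histone tails, as the DNA methyltransferases do to cytosine. H3 lysine 4 methylation marks active starts, whose CpG islands are usually free of DNA methylation, while H3 lysine 36 trimethylation, the mark that SETD2 deposits, lies over transcribed gene bodies, where it attracts DNMT3B. PRC2 methylates H3 lysine 27 and PRC1 ubiquitinates H2A at repressed developmental genes. Here the genes of these enzymes, and not the marks that they make, were measured.

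The siCon library held 104999613 read calls at 5453019 cytosines and the siH19 library 106372792 at 5266846, with median depths of 12 and 13. A total of 1850635 cytosines lay outside the MspI (CCGG) and TaqI (TCGA) sites and had 5 or more reads in both libraries. Their median depth was 24 in both libraries and their mean level was 33.1% in siCon and 33.3% in siH19. Starts of the muscle genes Des, Ckm, Acta1, Myod1 and Myog had siCon levels between 3.89% and 80.5%, and 4 of 9 muscle markers had too few covered cytosines. Methylation levels check neither the cell type nor the loss of H19 RNA.

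Gene starts in this family were mostly CpG-dense. The ratio of observed to expected CpGs within 1 kb of the start had a median of 0.727 over the 38 genes against 0.474 over protein-coding and 0.240 over all annotated genes. The bases before 3 starts are shown because they differ in CpG density and in how far they were covered or methylated, with every CpG in capitals, on the strand of the gene and from GRCm38.
Setd2, chr9:110532347-110532596, 31 CpGs: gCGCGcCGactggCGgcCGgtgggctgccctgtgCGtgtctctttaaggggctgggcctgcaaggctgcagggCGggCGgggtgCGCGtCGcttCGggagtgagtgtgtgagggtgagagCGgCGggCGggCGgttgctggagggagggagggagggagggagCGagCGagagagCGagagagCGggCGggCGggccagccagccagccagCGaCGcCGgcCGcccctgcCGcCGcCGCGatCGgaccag
Prdm9, chr17:15564355-15564604, minus strand, 13 CpGs: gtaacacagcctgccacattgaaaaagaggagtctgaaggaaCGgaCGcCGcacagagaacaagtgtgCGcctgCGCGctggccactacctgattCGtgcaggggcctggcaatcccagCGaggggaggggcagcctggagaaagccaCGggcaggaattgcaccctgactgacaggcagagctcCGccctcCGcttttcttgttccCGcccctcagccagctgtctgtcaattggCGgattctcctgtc
Smyd1, start of its RefSeq transcript, chr6:71262282-71262531, minus strand, 2 CpGs: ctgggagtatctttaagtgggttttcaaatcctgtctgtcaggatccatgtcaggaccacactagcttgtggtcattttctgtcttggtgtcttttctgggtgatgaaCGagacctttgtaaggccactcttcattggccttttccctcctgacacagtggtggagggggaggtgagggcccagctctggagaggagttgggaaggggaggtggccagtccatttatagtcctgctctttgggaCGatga

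The first question was where these genes were methylated in myotubes. Within 1 kb of the gene start, 35 of the 38 genes had at least 5 covered cytosines, 3010 in all, and the starts were nearly free of methylation in both libraries. The median level over genes, each taken as the mean over its cytosines, was 1.06% in siCon and 0.838% in siH19. Starts under 5% numbered 30 of 35 in either library (85.7%), against 50.9% of all starts tested and 60.1% of the protein-coding ones. Among the 29 starts with a CpG ratio of at least 0.6, 26 were under 5%, and among the other 6 starts it was 4. Ash2l, Cbx7 and Kdm6b had no covered cytosine at the annotated start.

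**Figure D1:**
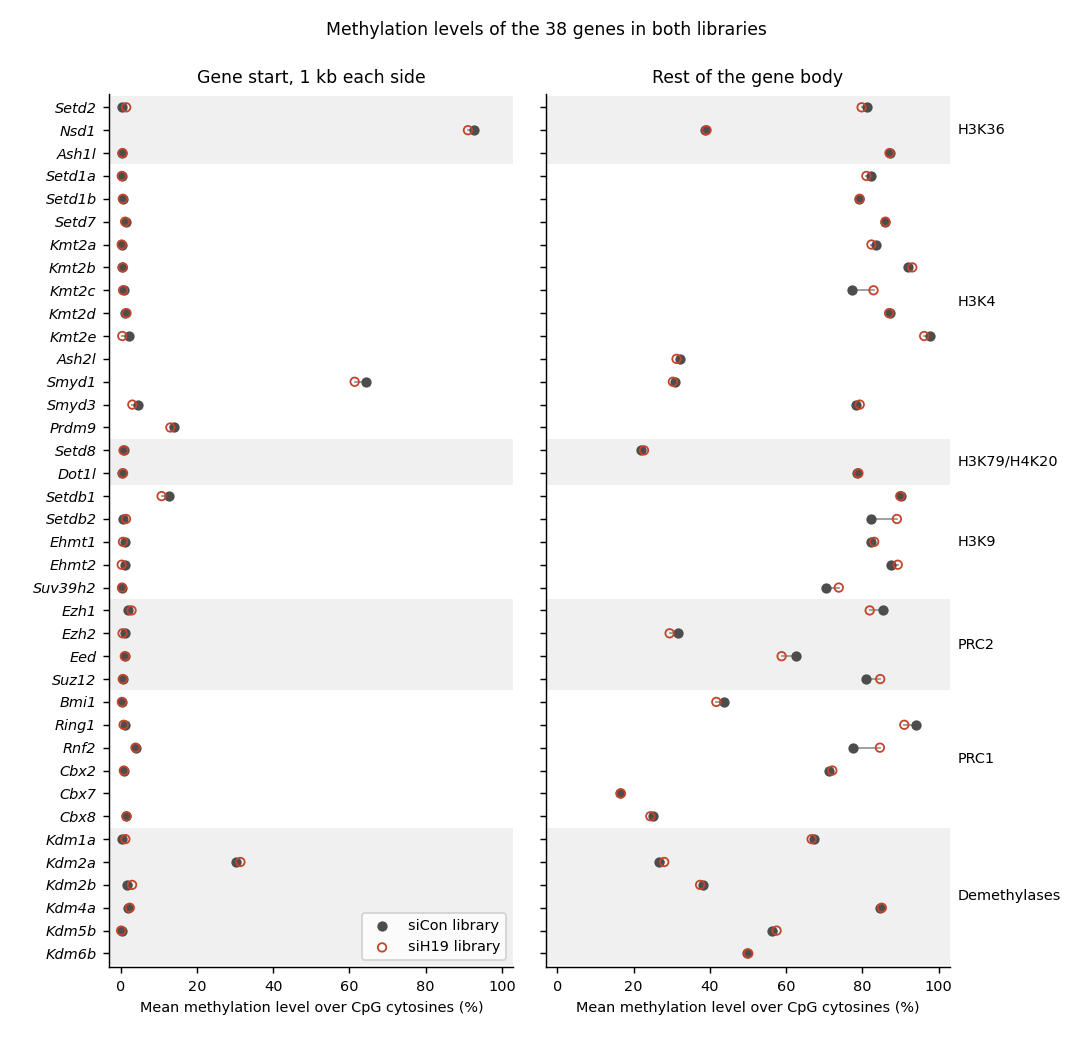
Mean methylation level in percent (x axis) of each of the 38 genes (rows, shaded by enzyme group), at the gene start (left, 35 genes) and over the rest of the gene body (right, 37 genes). Filled points are the siCon library and open points the siH19 library; starts lie near 0 except Nsd1, Smyd1, Kdm2a, Prdm9 and Setdb1, and the paired points lie close together.

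Among the H3 lysine 36 enzymes, Setd2 had a level of 0.315% in siCon and 1.46% in siH19 over 110 cytosines. Ash1l, a member of the trithorax group, had 0.418% and 0.495%. Both starts were thus almost unmethylated. Nsd1, which places the mono- and dimethyl marks on the same lysine, stood at the other end of the range with 92.8% and 91.1% over 99 cytosines.

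In the H3 lysine 4 group, 11 of 12 starts were measured and 9 were under 5%. They included the catalytic subunits of the COMPASS family, with siCon levels of 0.284% for Setd1a, 0.564% for Setd1b, 0.387% for Kmt2a, 0.342% for Kmt2b, 0.964% for Kmt2c and 1.25% for Kmt2d. The exceptions were Prdm9, which marks sites of meiotic recombination in germ cells, with 14% in siCon and 13% in siH19, and Smyd1, an enzyme of skeletal and heart muscle, with 64.3% and 61.4% over 11 cytosines. Smyd3, of the same family as Smyd1, had 4.46% and 3.06%.

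Of the H3 lysine 9 enzymes, Ehmt1 and Ehmt2, which form the dimethyltransferase complex, had siCon levels of 1.09% and 1.05%. Suv39h2 had 0.399% and Setdb2 0.678%. Setdb1, which acts with KRAB zinc finger repressors, had 12.5% in siCon and 10.7% in siH19 over only 8 cytosines. Its 4 cytosines upstream of the start had 0.758% in siCon, and the 4 that lay more than 500 bases downstream had 24.3%. Dot1l had 0.319% in siCon and 0.631% in siH19, and Setd8 0.789% and 0.761%.

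Every Polycomb gene start measured was under 5%, with Cbx7 not covered there. Other annotated starts of Cbx7 and Bmi1, given below, were above 5%. The PRC2 genes ranged in siCon from 0.489% for Suz12 to 1.91% for Ezh1, with 1.06% for the catalytic subunit Ezh2 and 1.2% for Eed, which binds methylated H3 lysine 27. Of the PRC1 genes, Bmi1 had 0.322%, Cbx2 0.883%, Ring1 1.09%, Cbx8 1.5% and Rnf2, a catalytic RING subunit, 3.96%. In Rnf2 the methylation lay upstream, with 12.1% in the 500 bases before the start and 0.425% in the 500 bases after it.

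The demethylases Kdm1a, Kdm2b, Kdm4a and Kdm5b had siH19 levels of 1.24%, 3%, 2.4% and 0.138%, and all 4 were under 5% in siCon too. Kdm2a, which binds unmethylated CpGs through its CXXC domain, had 30.1% in siCon and 31.4% in siH19. Its level fell along the gene from 61.9% in the 500 bases before the annotated start to 26.6%, 1.90% and 0.391% in the next 3 bins of 500 bases. The siH19 values of the same bins were 63.3%, 27.6%, 3.27% and 0.930%.

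The Nsd1 gradient was longer. In siCon the level was 88.4% before the annotated start and 95.9%, 91.5%, 75.5%, 42.3%, 1.61% and 0.475% in the 6 bins of 500 bases that followed, and in siH19 it was 86.6% and then 95.5%, 88.8%, 76.3%, 44.3%, 3.03% and 0.494%. The unmethylated end lay around another annotated Nsd1 start at chr13 position 55211819, 2037 bases downstream. Prdm9 had intermediate levels instead, with 7.74% over 4 cytosines before the start and 14.8% over 34 after it in siCon, and single cytosines after the start ran from 0% to 47.4%. No cytosine was covered within 1 kb of the RefSeq start of Smyd1, whose upstream bases hold only 2 CpGs, so the Smyd1 value belongs to the annotated start 59952 bases further upstream.

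**Figure D2:**
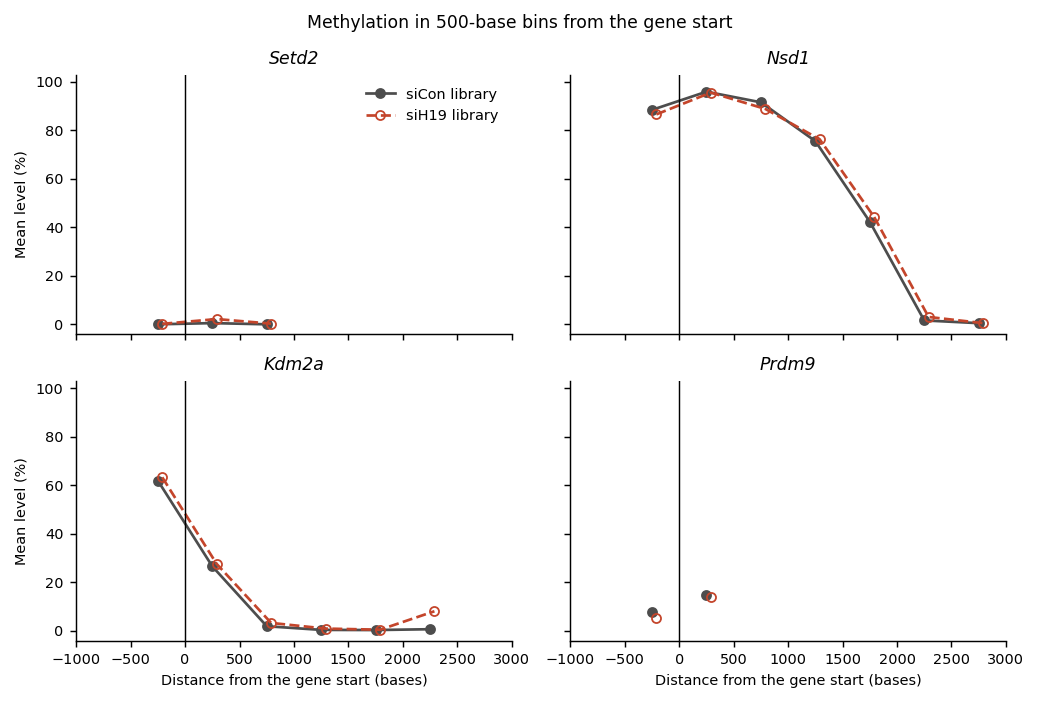
Mean methylation level in percent (y axis) in bins of 500 bases by distance from the annotated gene start (x axis, positive into the gene) for Setd2, Nsd1, Kdm2a and Prdm9. Filled points and solid lines are siCon and open points and dashed lines siH19, drawn slightly to the right; bins with under 3 covered cytosines are left out, Setd2 stays near 0, and Nsd1 and Kdm2a fall from methylated to unmethylated sequence at the same distances in both libraries.

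Because the gene start is not the only start of several genes, the other annotated transcript starts were also examined, a choice made after seeing the data. There were 18 such starts in 14 genes, of which 13 had at least 5 covered cytosines and 8 were under 5%. The other 5 were 1 start each of Cbx7, Prdm9 and Bmi1 and 2 of Nsd1, and the Bmi1 start at chr2 position 18680372 had 47.9% in siCon and 47.3% in siH19 over 25 cytosines. Starts that the gene-level window had missed were found unmethylated in Ash2l, with 1.33% in siCon and 0.738% in siH19 at chr8 position 25840787, and low in Cbx7, with 8.81% and 9.88% at chr15 position 79932652. The second Setd8 start at chr5 position 124445493 had 0.311% and 0.431% over 119 cytosines, and the internal Kdm2b start at position 122900355 of the same chromosome had 2.36% and 2.53% over 144. The Kdm6b gene, which encodes an H3 lysine 27 demethylase, held a CpG island of 3060 bases beginning 1650 bases downstream of the start and outside exons, and its 89 covered cytosines averaged 0.647% in siCon and 0.877% in siH19. With the most covered start taken for each gene, 37 genes were measured and 32 were under 5%.

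The second question was whether the starts differed between the libraries. Differences are Mantel-Haenszel differences in percentage points, siH19 minus siCon, which compare each cytosine with itself and weight it by its reads, tested by the Cochran-Mantel-Haenszel test with Benjamini-Hochberg adjustment over all 19476 starts tested. The 35 differences ranged from -4.02 points in Smyd1 to 1.72 points in Kdm2a with a median of 0.0555 points, against a median of 0.0884 over all starts. They were positive in 21 genes and negative in 14 (60.0% positive, against 55.1% of all starts). In size 30 of the 35 were smaller than 1 point (85.7%, against 60.1% of all starts and 67.2% of protein-coding ones). Most of these starts were under 5%, where a fall cannot be large. Across all starts 4.92% passed an adjusted p of 0.05 with a higher level in siH19 and 2.47% with a lower level. Here 1 of 35 passed, Setd2, with a higher level.

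No start of the family reached the call of at least 10 points and an adjusted p under 0.05, and none of the 35 reached it with a threshold of 5 points, which 1.78% of all starts did. Over all starts 0.442% were called higher and 0.185% lower. At an unadjusted p under 0.05 there were 4 of 35, namely Setd2, Kdm2a and Kmt2b with higher and Kmt2c with lower levels in siH19, against 21.3% of all starts. The 58 other genes of these pathways gave 54 tested starts, of which 3 passed an adjusted p of 0.05 with higher levels (Aebp2, Bcor and Phf8), 1 with a lower level (Kmt5b), and none was called.

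**Figure D3:**
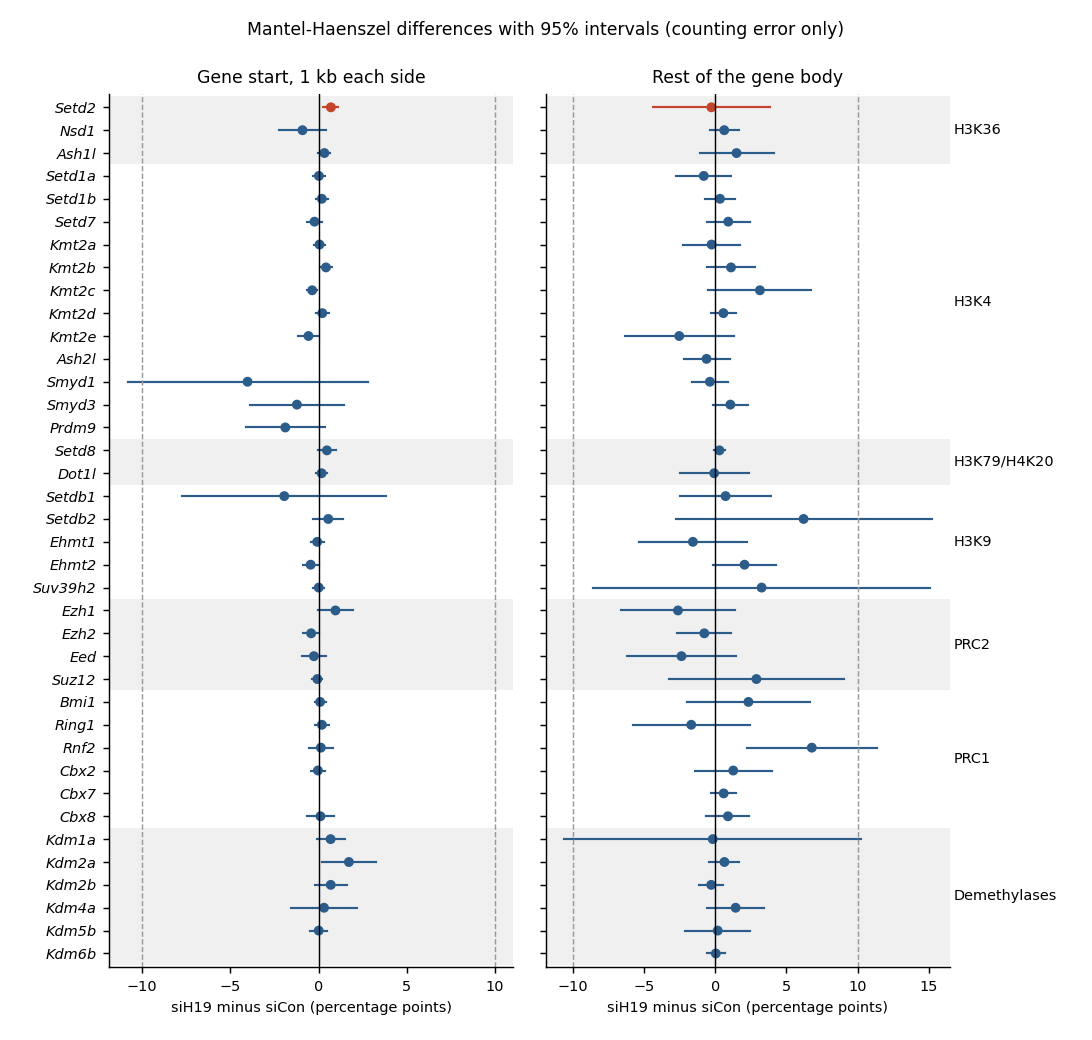
Mantel-Haenszel difference, siH19 minus siCon, in percentage points (x axis) with its 95% interval of counting error, for each gene (rows) at the gene start (left) and over the rest of the body (right). Setd2 is in red, dashed lines mark the 10 points needed for a call, and no point lies beyond them.

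The largest differences among starts with at least 10 cytosines were found where the start was methylated or thinly covered. Smyd1 differed by -4.02 points (95% interval -10.8 to 2.77), Prdm9 by -1.88 points (-4.12 to 0.361), Kdm2a by 1.72 points (0.205 to 3.23), Smyd3 by -1.22 points (-3.88 to 1.43) and Ezh1 by 0.959 points (-0.0500 to 1.97). All of these intervals but that of Kdm2a held 0, and the Kdm2a difference had an adjusted p of 0.165. The highly methylated Nsd1 start differed by -0.909 points (-2.24 to 0.425).

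The groups did not share a direction. All 5 demethylase starts measured had positive differences, from 0.0110 in Kdm5b to 1.72 in Kdm2a, and 3 of 4 PRC2 starts had negative ones, but within these groups only the Kdm2a interval excluded 0. Of the 33 starts with at least 5 covered cytosines on each strand, the plus and minus strands gave differences of the same sign in 16 and of opposite sign in 17. The mean absolute gap between the strands of a CpG was 1.78 points in siCon and 1.64 in siH19 over 1301 CpGs at these starts, beside a mean absolute gap between the libraries, 1.83 points on the plus and 1.70 on the minus strand.

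Setd2 was then set against the others. Its difference was 0.699 points (0.274 to 1.12; p = 0.00334, adjusted p = 0.0469, Cochran-Mantel-Haenszel chi-square test), the third highest of 35. The mean of the other 34 was -0.150 ± 0.983 (SD over genes), so Setd2 lay less than 1 SD above them. That SD includes methylated or thinly covered starts, such as Smyd1 with -4.02 points. Setd2 minus that mean was 0.849 points (0.327 to 1.37, counting error only). In siCon 2 other genes had a lower level than Setd2, and in siH19 22 had. The level itself stayed low: no Setd2 cytosine outside restriction sites exceeded 7.69% in siCon or 14.3% in siH19, and 104 of 110 had no methylated read in siCon and 83 in siH19.

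The Setd2 difference rested on few read calls. Methylated read calls numbered 8 of 2398 in siCon and 36 of 3646 in siH19, and 29 of the 36 (80.6%) lay on 2 of the 14 fragment strands, a fragment strand being 1 strand of the DNA between neighbouring restriction sites. On the plus strand between 28 and 214 bases after the start, 11 of 122 calls were methylated in siH19 and 2 of 133 in siCon. On the plus strand between 333 and 388 bases after the start, 18 of 563 were methylated in siH19 and 0 of 247 in siCon. In siH19 each of the 11 cytosines of either strand carried 1 or 2 methylated reads, while the opposite strands had 1 of 188 and 2 of 684.

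The stretch from 333 bases lies in the first intron, and its 57 bases are given because 18 of the 36 methylated siH19 calls lay there, with the CpGs in capitals.
Setd2, chr9:110532930-110532986, 11 CpGs: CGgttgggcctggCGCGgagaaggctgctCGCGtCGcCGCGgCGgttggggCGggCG

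Leaving out these 2 fragment strands, an alternative added once the values were known, gave -0.107 points (-0.422 to 0.208; p = 0.485, Cochran-Mantel-Haenszel chi-square test). With fragment strands as the units, the interval of the full difference was -0.453 to 1.85 and the adjusted p was 0.756 (normal test on the spread between units). The plus strand alone gave 1.64 points and the minus strand -0.119.

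The cytosine of Setd2 that the study followed up lies inside a CCGG site 32 bases before the start, on the minus strand at chr9 position 110532565, and was therefore outside the comparison above. The site is shown in capitals on that strand, the measured base being the second of the 4.
Setd2, chr9:110532550-110532579, minus strand: gcggcaggggcggCCGGcgtcgctggctgg
It had 1 methylated of 9 reads (11.1%) in siCon and 8 of 8 (100%) in siH19, with p = 0.000411 by the two-sided Fisher's exact test. Its partner on the plus strand had too few reads for comparison. In further transfections the study measured a Setd2 region by methylation-specific PCR after bisulfite treatment. It reported a rise with siH19 that returned to the control level on knockdown or inhibition of S-adenosylhomocysteine hydrolase. With Dnmt3b knocked down as well, it reported partial or full return over the genes tested. It detected no DNMT3B at the Setd2 region. None of those experiments was re-examined here. The Setd2 window held 17 restriction-site cytosines, whose levels ran from 0% to 100% in both libraries with means of 48.2% in siCon and 54.0% in siH19. Of these 3 were strongly changed, which means an unadjusted Fisher p under 0.05 and at least 33 points. They were the followed-up cytosine, the plus-strand cytosine 15 bases after the start (13.3% to 58.3%) and the minus-strand cytosine 232 bases before it (38.1% to 0%).

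**Figure D4:**
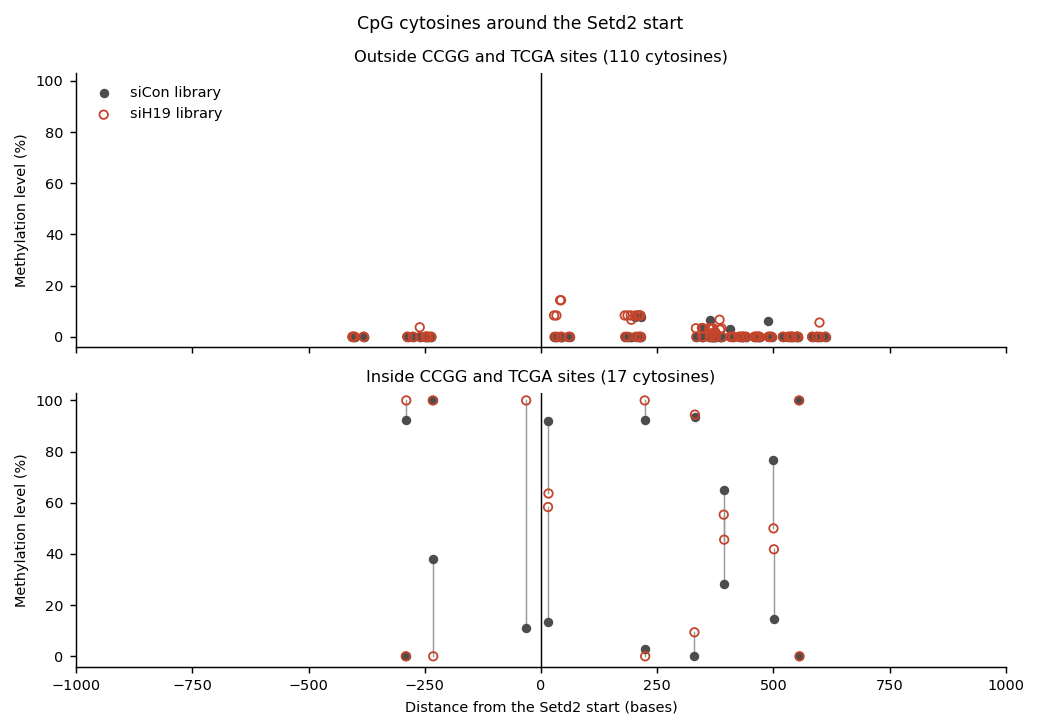
Methylation level in percent (y axis) of each CpG cytosine by distance from the Setd2 start in bases (x axis), outside (top, 110 cytosines) and inside (bottom, 17 cytosines) CCGG and TCGA sites. Filled points are siCon and open points siH19, joined by grey lines in the lower panel; the upper points stay at or under 14.3% and the lower points spread from 0% to 100%.

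Inside the sites the strands of 1 CpG differed widely. At the 8 site CpGs of the Setd2 window with both strands covered, the mean absolute gap between strands was 76.8 points in siCon and 63.5 in siH19, against 0.642 and 2.57 points at 54 CpGs outside sites. For instance, the site cytosine 291 bases before the start had 0% in both libraries, while its partner on the minus strand had 92.3% and 100%. Over all members the gap was 71.2 and 69.7 points at 324 site CpGs of the starts. The digested ends are filled in during library preparation, and the part this has in the site values was not tested.

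Site cytosines were also counted over the whole family. Of 733 site cytosines at the starts 29 were strongly changed (3.96%, 16 higher and 13 lower), against 2.58% of site cytosines at all starts. In none of the 27 with a covered partner did the other strand move the same way. An unchanged partner counted as not doing so, and no share over all starts is given beside this count. Outside the sites 0 of 3010 cytosines at the starts were strongly changed, against 0.504% at all starts. None of the 3010 passed an adjusted p of 0.05. An unadjusted Fisher p under 0.05 was found at 6, against 1.79% of cytosines at all starts. In siCon 2313 of the 3010 had no methylated read, so only a rise was possible there. Starts under 5% made up 85.7% of those here and 50.9% of all starts, so the lower shares cannot be read as greater stability.

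Gene bodies formed the third comparison. Outside the start window 37 of 38 genes had at least 5 covered cytosines, 2747 in all, and Prdm9 had none. The median level over genes was 78.3% in siCon and 79.3% in siH19, against 57.2% and 57.7% over all 18018 bodies tested. The highest siCon levels among bodies with at least 10 cytosines were 94.2% in Ring1, 92.1% in Kmt2b, 90.3% in Setdb1, 87.5% in Ehmt2 and 87.3% in Kmt2d. The lowest were 16.5% in Cbx7, 21.9% in Setd8, 25.2% in Cbx8, 26.7% in Kdm2a and 31.0% in Smyd1.

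The low bodies held further starts or islands. In Cbx7, 69 of 123 body cytosines lay near the start of its transcripts. In Setd8, 122 of 161 lay near its other annotated starts and averaged 0.303% in siCon, and its remaining exonic and intronic cytosines averaged 85.9%. In Cbx8, a chromodomain subunit of PRC1, 57 cytosines of a CpG island in exon sequence had 5.51% in siCon and 5.97% in siH19, whereas 17 other exonic cytosines had 90.1% and 85.3%. In Smyd1, 57 of 75 lay near starts of other genes inside it, and the island at the Krcc1 start had 3.25% and 3.15%.

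Sorted by annotation, mean levels over cytosines were highest in exons. Exons averaged 89.5% in siCon over 415 cytosines and introns 72.0% over 687. CpG islands away from any start averaged 70.9% over 922, and 50 of the 60 such islands with at least 5 covered cytosines were above 80%, 7 between 20% and 80%, and 3 below 20%. Other starts of the same genes averaged 8.63%. As medians over genes, islands away from starts and exons were close, with 89.3% and 89.7% in siCon. In siH19 the islands had 91.7% and the exons 88.9%. Outside starts and islands the median over 35 genes was 81.7% in siCon and 81.9% in siH19, with Bmi1 the lowest at 25.9% and 18.5% over 6 cytosines.

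**Figure D5:**
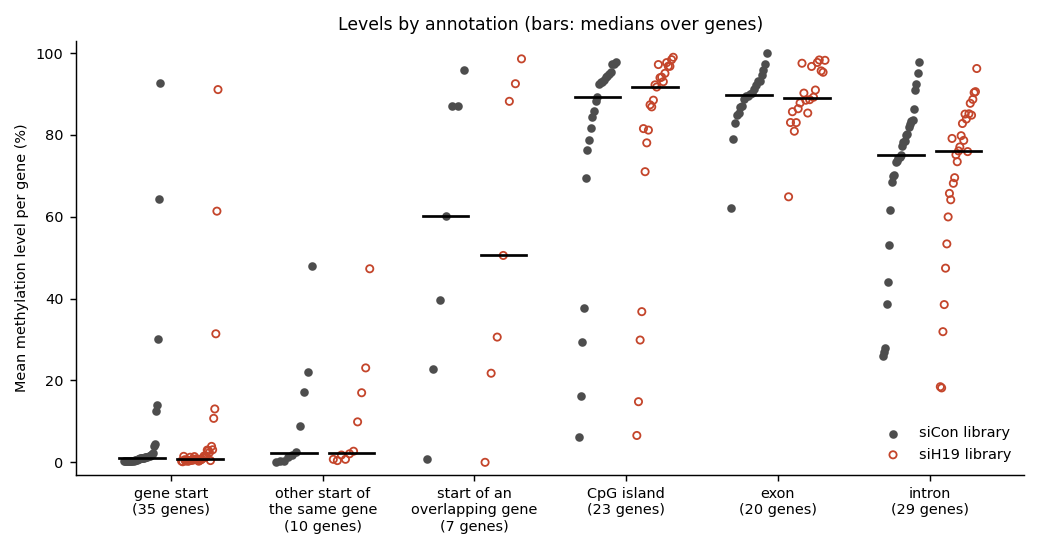
Mean methylation level per gene in percent (y axis) by annotation of the cytosines (x axis), for genes with at least 5 covered cytosines of that kind. Filled points are siCon, open points siH19 and bars medians over genes; gene starts and other starts lie low with a few exceptions, and exons lie above 60%.

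Body differences were small beside their intervals. They ranged from -2.63 points in Ezh1 to 6.78 in Rnf2, with a median of 0.563 points against 0.177 over all bodies. They were positive in 23 and negative in 14 genes (62.2% positive, against 54.1% of all bodies). No body of the family passed an adjusted p of 0.05 and none was called, while 1 had an unadjusted p under 0.05, against 13.1% of all bodies. Over all bodies 0.96% passed higher and 0.438% lower, and 0.189% and 0.128% were called. Fisher's exact test on reads summed over each body, which also moves when reads fall on other cytosines, gave 14 members with an adjusted p under 0.05, against 26.3% of all bodies, and 2 calls, Eed and Kdm5b, against 8.67%. The 58 other pathway genes gave 50 tested bodies, of which Bcor passed with a higher level and none was called.

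Rnf2 had the largest body difference. Over 20 cytosines its level averaged 77.6% in siCon and 84.6% in siH19. The Mantel-Haenszel difference was 6.78 points (2.23 to 11.3; p = 0.00206, adjusted p = 0.0860, chi-square test). Most of it lay in 5 cytosines of a CpG-dense intronic stretch of 237 bases in soft-masked repeat sequence, chr1:151472347-151472583, with 28.6% in siCon and 58.0% in siH19. Leaving out that stretch, again added once the values were known, left an Rnf2 difference of 0.911 points (-3.04 to 4.86). With fragment strands as units the interval was -3.22 to 16.8.

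Further large body differences among genes with at least 10 cytosines were 3.13 points in Kmt2c (-0.491 to 6.76), -2.63 in Ezh1 (-6.64 to 1.38), -2.38 in Eed (-6.25 to 1.48) and 2.33 in Bmi1 (-2.03 to 6.68). Each interval held 0. The body of Bmi1, a Polycomb ring finger protein, held differences of both signs, with 6.71 points (1.25 to 12.2) near a second start and -8.85 (-15.4 to -2.27) at 6 intronic cytosines. The plus and minus strands gave body differences of the same sign in 16 of 32 genes.

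The Setd2 body was methylated in both libraries. Its 28 cytosines had a mean of 81.1% in siCon and 79.8% in siH19, with 275 and 446 reads. The difference was -0.281 points (-4.39 to 3.82; p = 0.892, adjusted p = 0.974, chi-square test), rank 27 of 37, against a mean of 0.679 ± 2.03 (SD over genes) for the other 36. Its exonic cytosines had 94.6% and 98.3% and its intronic ones 73.6% and 69.5%. With reads summed over the body it was -6.23 points (p = 0.0482, adjusted p = 0.137, Fisher's exact test). A body difference inside the first interval was not detectable at this depth.

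Single cytosines were the last comparison. Of the 5757 member cytosines outside restriction sites, 25 met the criterion of a strong change (0.434%), in 15 genes and all in gene bodies, with 11 rises and 14 falls. Over the genome 0.519% were strongly higher and 0.467% strongly lower, and among body cytosines of all genes 1.21% were strongly changed against 0.91% of the 2747 here. Of the 5757, 2921 had no methylated read in siCon and could not fall, which limits the comparison with the genome. None of the 5757 passed an adjusted p of 0.05, which 0.00648% did over the genome, and 56 had an unadjusted Fisher p under 0.05, against 2.53% over the genome. Setd2 had none among its 138. Where the other strand was covered, it moved the same way in 5 of 15.

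Cytosines were named if they had at least 10 reads in each library and the other strand moved in the same direction. Of these, the lowest p in each direction was in Rnf2 and Kdm2b. Another member cytosine, not named by this rule, had a lower adjusted p of 0.394. The Rnf2 and Kdm2b cytosines are printed with 30 bases of their own strand because they came first by the rule, the measured CpG in capitals.
Rnf2, chr1:151472389-151472418, minus strand: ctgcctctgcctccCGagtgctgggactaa
Kdm2b, chr5:122959527-122959556, minus strand: tgtcgaatgtagacCGagtgccaggctttt
The Rnf2 cytosine, in the repeat stretch named above, had 3 of 16 reads methylated (18.8%) in siCon and 19 of 24 (79.2%) in siH19, and its partner strand had 0 of 8 and 4 of 16. The Kdm2b cytosine, in an intronic CpG island, had 31 of 32 (96.9%) and 5 of 10 (50%), and its partner 26 of 32 and 5 of 11. Their Fisher exact p was 0.000271 and 0.00158 and their adjusted p 0.417 and 0.819.

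The other cytosines named by the same rule changed less. A minus-strand cytosine of Kdm2a 500 bases into the gene had 2 of 43 reads methylated in siCon and 14 of 45 in siH19. An intronic cytosine of Ash1l had 6 of 26 and 27 of 51. Lower in siH19 were an intronic cytosine of Smyd3, with 10 of 14 and 10 of 34, and a coding cytosine of Setd1b, with 46 of 46 and 28 of 32. Their partner strands moved the same way by 8.24, 3.73, -23.3 and -15.0 points.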

How the data were processed

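The deposited files gave, per CpG cytosine and strand, a text field of methylated and total reads, used here as counts, and a score computed by the authors, 1000 times the methylated share of reads, which matched the counts in 100% of entries. The authors digested DNA with MspI and TaqαI, aligned reads with Bismark in non-directional mode and trimmed filled-in nucleotides; its version and duplicate removal are not given in the sources used here. The submitters' processing notes name bcl2fastq 1.8.4 and mm10. All 4668101 shared cytosines fell on CpGs of GRCm38. Genes were from GENCODE vM21, and CpG islands were computed (at least 200 bp, 50% GC, CpG ratio 0.6).

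Regions with at least 5 cytosines of at least 5 reads in each library were tested with Python 3.11.15, numpy 2.4.6 and scipy 1.17.1, stratified by cytosine and strand. The test was tried on simulated data. Groups came from the labels. Members and lists were chosen with earlier results of these data known. Members named by rule were Setd2, called members, the 5 largest differences, starts of at least 20%, and the 5 highest and lowest bodies. Start levels of most other members were given as well, outside that rule. Named cytosines were the 3 with the lowest p in each direction with at least 10 reads and the same direction on the other strand. Alternatives changed read minimum, sites, strands, repeats, weighting, window, units and thresholds.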

Additional observations from a re-analysis of the deposited data

Results flagged for a closer look

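Restriction-site cytosines were left out of the comparisons, but some of them differed between the libraries. At the starts of these genes 29 of 733 were strongly changed (3.96%, against 2.58% at all starts). In 0 of the 27 with a covered partner did the other strand move the same way, an unchanged partner counting as not doing so. No share over all starts is given beside that count. The mean gap between the strands of a site CpG at the starts of these genes was 71.2 points in siCon and 69.7 in siH19. The Setd2 site cytosine 32 bases before the start read 100% in siH19 (8 of 8 reads) and 11.1% in siCon (1 of 9).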

How the results depend on the processing

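No paired analysis was possible because each group had 1 library and the labels carry no replicate numbers, and for the same reason no replicate could be left out. The Setd2 start difference stayed positive under every change of processing but the one chosen after seeing the data. With 2 kb, without soft-masked cytosines and with fragment strands as units the same 110 cytosines were used, so its value could not change. With 2 kb the adjusted p moved only through the other starts tested. The adjusted p exceeded 0.05 in 5 of the changes under which the difference stayed positive. With the chi-square test it was 0.634 points with at least 10 reads (adjusted p = 0.0871) and 0.790 with restriction sites included (0.356). It was 0.770 with 500 bp each side (0.0543) and 0.699 with 2 kb (0.0512). With fragment strands as units it was 0.699 (0.756, normal test on the spread between units). The unweighted mean gave 1.14 points. Without the 2 fragment strands richest in methylated siH19 reads, an alternative chosen after seeing the data, it reversed to -0.107 points. The Setd2 body difference changed sign to 1.05 points with at least 10 reads, 0.135 with sites included and 0.312 without soft-masked cytosines, and was -6.23 with summed reads, with an adjusted p above the threshold in all 4. The median member difference at starts, 0.0555 points, became 0.0148 with sites included, 0.0936 with strands summed, 0.0333 without soft-masked cytosines, 0.0348 with summed reads and with 500 bp, 0.107 with 2 kb and 0.0911 at the most covered start, and reversed to -0.0377 with unweighted means. The median in bodies, 0.563, became 0.353 with sites included, 1.2 with summed reads, 0.268 with 500 bp and 0.186 with unweighted means.

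Calls over all genes, 122 starts and 57 bodies, became 491 and 1562 with reads summed over regions, 1 and 2 with fragment strands as units, and 347 and 134 at a threshold of 5 points. Members were called only with summed reads. At adjusted p under 0.05, Eed appeared with 500 bp, Kdm6b with 2 kb and Prdm9 with summed reads at starts, and Smyd3 with sites included in bodies. The 25 strongly changed member cytosines became 13 with at least 10 reads, 81 with sites included, 12 with strands summed and 15 without soft-masked cytosines. The Rnf2 body had too few cytosines outside soft-masked sequence. Causes of these shifts were not tested. The median half-width of the members' 95% intervals was 0.452 points at starts and 2.24 in bodies.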
